A study of Danio rerio with 3 samples.

Results

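The DNA replication and mitosis genes described here are 32 symbols, chosen by name for their roles in the cell cycle, which match 34 of the 32057 features of the deposited gene table because rrm2 and ube2c each belong to 2 Ensembl identifiers. They were read in 3 droplet libraries (10x Genomics) of zebrafish (Danio rerio) brain, where a unique molecular identifier (UMI) tags each captured transcript and a barcode tags each droplet. The libraries are labelled Zn10 and Zn15, both treated with zinc, and Ctrl, with 1 library per treatment. The sources used here do not give genotype, strain, sex, age, the number of fish behind a library, the unit of the numbers 10 and 15, or how and how long the fish were exposed. The labels say that single brain cells were prepared, but whole cells and nuclei cannot be told apart from these counts, so barcodes are not called cells.

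Cells copy their DNA in S phase and divide it in mitosis, and the transcripts of both machineries are made mostly around the phase in which they act. In the adult zebrafish brain, radial glia beside the ventricles act as neural stem cells, committed neuronal progenitors divide further, and oligodendrocyte precursors and immune cells can divide as well. Mature neurons do not divide, and their barcodes therefore serve below as the class that should lack mitosis transcripts.

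The Zn10, Zn15 and Ctrl libraries held 974866, 1634806 and 1698707 UMIs and 2850, 5154 and 5679 barcodes. Depth was low, at a median of 271, 255 and 240 UMIs a barcode. Neuronal elavl3 and snap25a, oligodendrocyte mbpa and radial glial fabp7a were all present with 99 UMIs or more in each library. The members together took 1373, 2801 and 2377 UMIs in Zn10, Zn15 and Ctrl, which is 0.141%, 0.171% and 0.140% of all UMIs. Since each treatment has a single library, nothing could be tested over samples, and every difference below is one between libraries, not conditions. Intervals are exact, at 95%, and cover counting error only, not the spread between fish, dissociations or library preparations. Levels are UMIs per 1000000 UMIs of the library or class (CPM), and a lower level can come from fewer cells that make a transcript or from less transcript per cell, which cannot be told apart in a library total.

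The members fall into 16 mitosis symbols, 12 replication symbols and 4 others that act in the cycle but are not restricted to S phase or mitosis. Of the 34 identifiers 33 had a UMI. The exception was the ube2c identifier ENSDARG00000101618, which had 0 UMIs in Zn10, Zn15 and Ctrl and which the gene name table calls DNTTIP1.

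Transcripts of mitosis genes were concentrated in a single cluster of barcodes. Of 11207 barcodes kept after filtering, 320 (2.86%) carried UMIs of 2 or more different mitosis members, and these are called mitosis-positive. Clustering, done without the members and without further cell cycle genes, placed 254 of the 320 (79.4%) in cluster 1, which held 1980 barcodes. In cluster 1, 12.8% of barcodes (interval 11.4 to 14.4) were mitosis-positive and the mitosis members summed to 2191 CPM. Cluster 1 was left unnamed: markers of newborn neurons or neuronal progenitors and of cerebellar granule neurons were both high in it, among them atoh1c, pax6a and 6 zic genes. Further genes that lead it, such as ercc6l, pbk and dscc1, themselves act in division or replication and were not on the lists left out, so its level of members is a description of the cluster and not an independent result.

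Radial glia-like barcodes came next. Of 606 such barcodes, 26 (4.29%, interval 2.82 to 6.22) were mitosis-positive, and their summed mitosis members reached 534 CPM. Oligodendrocyte precursor-like barcodes held 14 mitosis-positive of 1038 (1.35%, interval 0.739 to 2.25) and 178 CPM. In immune classes the counts were small: 7 of 868 microglia or macrophage-like barcodes (0.806%) and 2 of 349 lymphocyte or other leukocyte-like barcodes (0.573%) were mitosis-positive. Among newborn neuron or neuronal progenitor-like barcodes, a cluster apart from cluster 1, 5 of 1116 (0.448%) were mitosis-positive. The 15 markers behind that name included tfap2a, ebf3a, sox11a and tubb5, but not dla, insm1a or notch1a. Its share is therefore not one for neuronal progenitors as a whole. In glutamatergic neuron-like barcodes it was 0 of 1020, which allows a share of up to 0.294% when 3 counts are set as the limit of a 0, and in GABAergic neuron-like barcodes 0 of 463, which allows up to 0.648% by the same limit. Cerebellar granule neuron-like barcodes were not at 0: 2 of 444 (0.450%, interval 0.0546 to 1.62) were mitosis-positive, and mitosis members summed to 132 CPM (13 UMIs). Median depth was 237.5 UMIs in cluster 1, 323 in radial glia-like, 423 in oligodendrocyte precursor-like and 347 in glutamatergic neuron-like barcodes, so the glutamatergic neuron-like barcodes were deeper than those of cluster 1. After thinning to 200 UMIs the shares were 9.75% in cluster 1, 2.26% in radial glia-like and 0.509% in oligodendrocyte precursor-like barcodes. They were 0.495% in cerebellar granule neuron-like, 0.484% in microglia or macrophage-like and 0.380% in newborn neuron or neuronal progenitor-like barcodes. At equal depth oligodendrocyte precursor-like barcodes were thus about level with the granule neuron-like and microglia or macrophage-like ones.

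Replication members were likewise highest in cluster 1 and radial glia-like barcodes, and they were also present in classes of mature neurons. Their summed level was 1073 CPM in cluster 1, 593 CPM in radial glia-like and 251 CPM in oligodendrocyte precursor-like barcodes. Glutamatergic neuron-like barcodes, in which mitosis members reached 9.49 CPM (4 UMIs), still carried 166 CPM of replication members (70 UMIs). Among those 70 UMIs, 18 were of ccne2, the cyclin of the G1 to S step, and 17 of mcm6, a subunit of the replicative helicase. A further 13 were of dnajc9 and 10 of pcna. The helicase subunits mcm2, mcm3, mcm4, mcm5 and mcm7 had only 1, 2, 1, 0 and 0 UMIs there. Vascular or mural-like barcodes had 308 CPM of replication members (21 UMIs) beside 14.7 CPM of mitosis members (1 UMI).

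**Figure D1:**
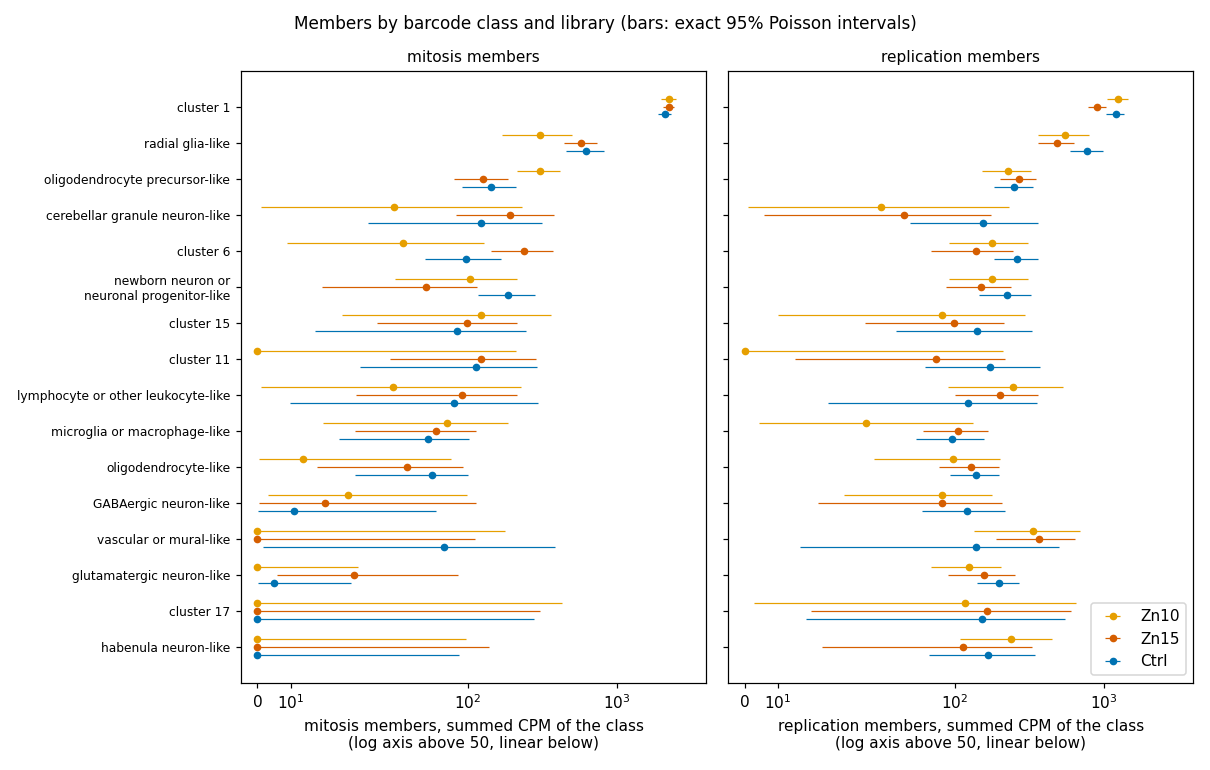
Summed CPM of mitosis members (left) and replication members (right) in each barcode class, with 1 point per library (Zn10, Zn15, Ctrl) and exact 95% Poisson intervals, on an axis that is logarithmic above 50 CPM. Cluster 1 and radial glia-like barcodes lie highest in both panels. Over the 3 libraries together, glutamatergic neuron-like barcodes have 166 CPM of replication (70 UMIs) and 9.49 CPM of mitosis members (4 UMIs). Cerebellar granule neuron-like barcodes have 81.5 CPM of replication (8 UMIs, 35.2 to 161) and 132 CPM of mitosis members (13 UMIs, 70.5 to 226), with intervals that overlap.

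Most mitosis members were found chiefly in barcodes that carried another one. Of the 40 kept barcodes with kif23, the kinesin of the cytokinetic midzone, 87.5% (interval 73.2 to 95.8) held a further mitosis member. For tpx2, which activates the spindle pole kinase Aurora A, the share was 81.1% of 90 barcodes, and for mki67, the chromosome-coating protein Ki-67, 64.4% of 267. Among barcodes without mki67, 4.1% held another mitosis member. The lowest share among mitosis members in 20 or more barcodes was that of aurka, Aurora A itself, with 47.6% of 21 barcodes (interval 25.7 to 70.2).

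Among replication members in 20 or more barcodes, the share with a mitosis member ran from 9.35% to 59.4%. A mitosis member accompanied the rrm2 identifier ENSDARG00000020711, the small subunit of ribonucleotide reductase, in 59.4% of 207 barcodes (interval 52.4 to 66.2). It accompanied mcm3, a helicase subunit, in 44.4% of 54 and pcna, the sliding clamp of DNA polymerases, in 32.0% of 219. For ccne2, the cyclin of the G1 to S step, the share was 9.35% of 139 barcodes (interval 5.07 to 15.5), against 6.34% of barcodes without ccne2. The share for ccne2 is thus not separated by its interval from the share elsewhere. Barcodes with more UMIs have more chances to show any pair of genes: median depth was 388.5 UMIs in mitosis-positive barcodes and 287 in all kept ones, and the part of depth in these shares was not tested.

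**Figure D2:**
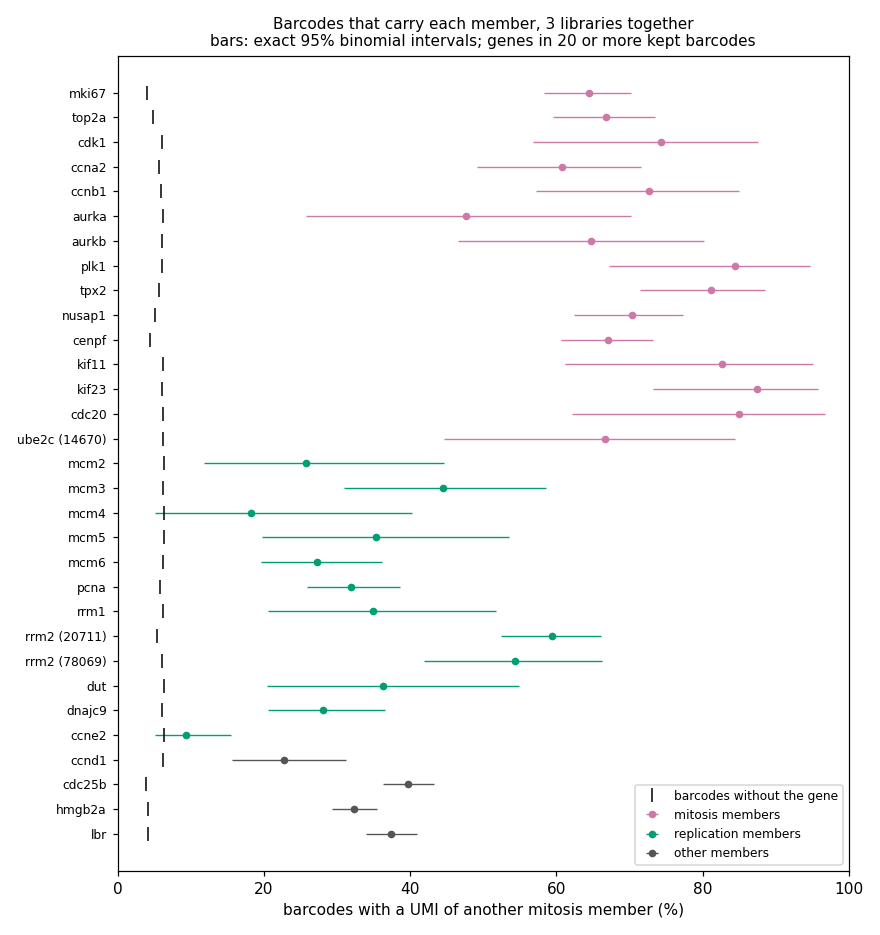
Share of kept barcodes with each member that also hold a UMI of another mitosis member, for the 3 libraries together with exact 95% binomial intervals; the black ticks give the share among barcodes without that gene. Mitosis members lie between 47.6% and 87.5%, replication members between 9.35% and 59.4%, and ccne2 lies beside its tick.

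Summed over the list, markers of newborn neurons or progenitors were higher in mitosis-positive barcodes, a feature that the rule for choosing the members did not use. Of 14 such markers with 15 or more UMIs there, 12 were higher than in barcodes with no mitosis member and 2 lower. Of 9 granule neuron markers 8 were higher and 1 lower. Markers low in mitosis-positive barcodes can miss that minimum, so these counts lean towards higher and are only a description. The Notch ligand gene dla, made by cells about to become neurons, had 1279 CPM in the 320 mitosis-positive barcodes and 135 CPM in the 10492 barcodes with no mitosis member. For insm1a, a zinc finger regulator of neuronal differentiation, the levels were 1737 and 227 CPM. The transcription factor genes zic1 (1010 and 234 CPM) and pax6a (545 and 99.1 CPM), which mark the granule lineage of the cerebellum, were higher as well. The pan-neuronal elavl3 was close to level at 2333 and 1909 CPM, sox4a was lower at 196 and 283 CPM, and the granule neuron marker etv1 was lower at 203 and 352 CPM. Summed over the whole lists with no such minimum, newborn neuron or progenitor markers were 1.88 times and granule neuron markers 2.73 times as high in mitosis-positive barcodes. Radial glia markers past the same minimum split, with 6 of 10 higher and 4 lower. The stem cell factor gene sox2 had 349 and 120 CPM, whereas the glutamine synthetase gene glula had 1439 and 3423 CPM and cx43, a gap junction gene, 145 and 795 CPM. The summed radial glia list was 0.585 times, the oligodendrocyte list 0.0775 times and the microglia or macrophage list 0.237 times the level in barcodes with no mitosis member. The radial glia sum leans on glula, with 198 of its 558 UMIs in mitosis-positive barcodes and 12464 of 25228 in barcodes with no mitosis member. It does not stand for the 6 markers that were higher.

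Across the libraries, mitosis members were highest in Zn15. Summed over all barcodes they gave 362 CPM in Zn10 (353 UMIs), 438 CPM in Zn15 (716 UMIs) and 309 CPM in Ctrl (525 UMIs). The ratio to Ctrl was 1.17 (interval 1.02 to 1.34) for Zn10 and 1.42 (1.26 to 1.59) for Zn15. Scaled by the median of ratios over genes instead of by total UMIs, they were 1.08 (0.939 to 1.24) and 1.48 (1.32 to 1.66). Without the 10 barcodes of each library that held most mitosis UMIs, the Zn10 ratio was 0.979 (0.837 to 1.14) and the Zn15 ratio 1.41 (1.25 to 1.60).

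Among the markers of chromosomes and the spindle, mki67 had 79 UMIs in Zn10, 183 in Zn15 and 102 in Ctrl, or 81.0, 112 and 60.0 CPM. Its Zn15 level was 1.86 times that of Ctrl (1.46 to 2.40), above 1 by more than counting error, and its Zn10 level 1.35 times (0.993 to 1.83). The kinetochore gene cenpf had 65, 146 and 99 UMIs in Zn10, Zn15 and Ctrl, and Zn15 lay 1.53 times above Ctrl (1.18 to 2.0). The gene tpx2 had 21, 56 and 31 UMIs, with a Zn15 ratio of 1.88 (1.19 to 3.01). Mitosis members thus did not all go with mki67: top2a, the topoisomerase that separates sister chromatids, had 58, 85 and 97 UMIs, and its ratios were 1.04 (0.739 to 1.46) in Zn10 and 0.911 (0.672 to 1.23) in Zn15. The microtubule-binding nusap1 had 44, 82 and 64 UMIs, with a Zn15 ratio of 1.33 (0.948 to 1.88).

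The kinases and cyclins of mitosis were sparse. Polo-like kinase plk1 had 6, 22 and 10 UMIs in Zn10, Zn15 and Ctrl, with a Zn15 ratio of 2.29 (1.04 to 5.41). The mitotic kinase cdk1 had 10, 17 and 10 UMIs, its cyclin partners ccna2 18, 39 and 28 UMIs and ccnb1 7, 23 and 20 UMIs. Intervals of these last 3 genes included 1 in both zinc libraries, so a difference was not detectable at this depth. The same held for aurkb, the kinase of the chromosomal passenger complex, with 5, 13 and 16 UMIs, and for kif23 with 9, 16 and 16 UMIs.

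The remaining mitosis members had fewer UMIs still. In Zn10, Zn15 and Ctrl, aurka had 6, 7 and 11 UMIs, the spindle motor kif11 had 6, 7 and 10, and cdc20, an activator of the anaphase-promoting complex, had 6, 10 and 6. The checkpoint kinase bub1 had 1, 0 and 1 UMIs. For ube2c (ENSDARG00000114670), the ubiquitin-conjugating enzyme that works with that complex, there were 12, 10 and 4 UMIs. With so few UMIs, none of these 5 genes reached the minimum of 20 in a zinc library and Ctrl together that was set for naming a fold change, so their counts stand without a ratio.

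**Figure D3:**
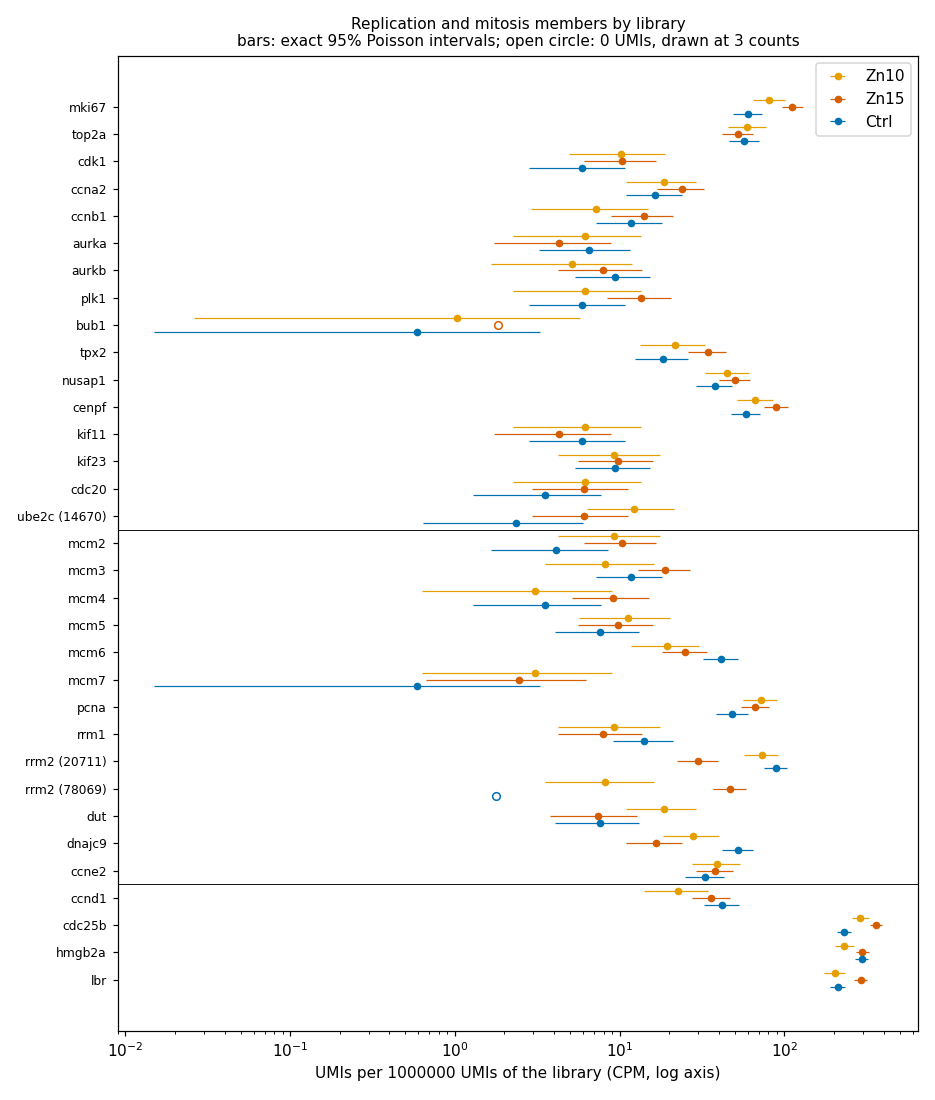
CPM of each member with a UMI in Zn10, Zn15 and Ctrl, with exact 95% Poisson intervals on a log axis; lines separate mitosis, replication and other members, and an open circle marks 0 UMIs, drawn at 3 counts. Most intervals of the 3 libraries overlap, and mki67, cenpf, dnajc9, both rrm2 identifiers, cdc25b and lbr stand apart between Zn15 and Ctrl.

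Replication members as a sum differed less between libraries. They gave 302 CPM in Zn10 (294 UMIs), 289 CPM in Zn15 (472 UMIs) and 313 CPM in Ctrl (532 UMIs), with ratios to Ctrl of 0.963 (0.832 to 1.11) and 0.922 (0.813 to 1.05). In barcodes with 200 or more genes the ratios were 1.08 (0.881 to 1.31) and 1.21 (1.01 to 1.44), so the direction depended on which barcodes were counted. Inside the sum, members went both ways. The clamp gene pcna had 70, 109 and 82 UMIs in Zn10, Zn15 and Ctrl, and was 1.49 (1.07 to 2.07) times as high in Zn10 and 1.38 (1.03 to 1.86) times in Zn15 as in Ctrl. In contrast dnajc9, a chaperone of newly made histones H3 and H4, had 27, 27 and 89 UMIs, and its ratios were 0.529 (0.330 to 0.821) and 0.315 (0.197 to 0.490).

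The subunits of the replicative helicase differed in direction. For mcm6 there were 19, 41 and 70 UMIs in Zn10, Zn15 and Ctrl, and both zinc libraries lay below Ctrl, at 0.473 (0.269 to 0.794) and 0.609 (0.404 to 0.907) times its level. The other subunits were not lower in Zn15: mcm2 had 9, 17 and 7 UMIs, mcm3 had 8, 31 and 20, mcm4 had 3, 15 and 6, mcm5 had 11, 16 and 13, and mcm7 had 3, 4 and 1. Zn15 ratios of mcm2, mcm3 and mcm4 were 2.52 (0.995 to 7.20), 1.61 (0.889 to 2.98) and 2.60 (0.952 to 8.17), so each interval included 1. Of the UMIs of mcm6, 36.5% lay in cluster 1. That share was 27.8% for mcm5, 53.1% for mcm2, 54.5% for mcm4, 63.8% for mcm3 and 75% for mcm7, which had 8 UMIs in kept barcodes. Without dnajc9 and mcm6 the replication sum was 1.16 (0.983 to 1.36) times Ctrl in Zn10 and 1.13 (0.975 to 1.30) times in Zn15.

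The genes of nucleotide supply were uneven. The large reductase subunit rrm1 had 9, 13 and 24 UMIs in Zn10, Zn15 and Ctrl, with intervals that included 1. The dUTPase gene dut, which keeps uracil out of DNA, had 18, 12 and 13 UMIs, and its Zn10 ratio was 2.41 (1.12 to 5.36). For ccne2 there were 38, 62 and 56 UMIs, at 1.18 (0.762 to 1.82) and 1.15 (0.789 to 1.68) times Ctrl. It was highest in oligodendrocyte precursor-like barcodes (76.9 CPM, 38 UMIs), and 20.8% of its UMIs lay in cluster 1.

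The small reductase subunit rrm2 was read from different identifiers in different libraries. The identifier ENSDARG00000020711 had 71 UMIs in Zn10, 49 in Zn15 and 151 in Ctrl, and its Zn15 level was 0.337 times that of Ctrl (0.239 to 0.468). The identifier ENSDARG00000078069 had 8, 76 and 0 UMIs, so that with 3 counts set for Ctrl its Zn15 level was at least 26.3-fold higher. It made up 10.1% (4.47 to 19) of rrm2 UMIs in Zn10, 60.8% (51.7 to 69.4) in Zn15 and 0% in Ctrl, which allows a share of up to 1.99%. The sum of both identifiers was 81.0, 76.5 and 88.9 CPM in Zn10, Zn15 and Ctrl, with ratios of 0.912 (0.685 to 1.2) and 0.860 (0.673 to 1.1). Both identifiers lay mostly in cluster 1, with 65.2% of UMIs of ENSDARG00000020711 and 69.5% of those of ENSDARG00000078069 there. A barcode with both occurred 1, 10 and 0 times. The gene table gives the symbol RRM2 to both identifiers, and the RefSeq annotation lists 2 protein-coding genes with rrm2 as a synonym, rrm2b and rrm2l. How reads were divided between the identifiers, and whether the fish of the libraries differed at these loci, was not tested.

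**Figure D4:**
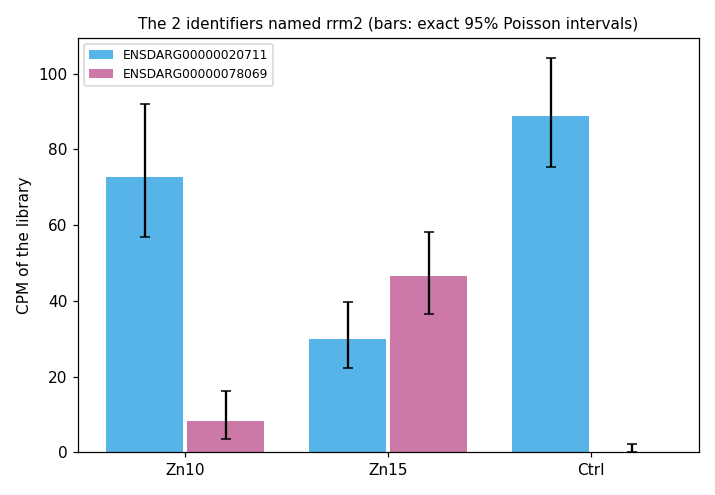
CPM of the 2 Ensembl identifiers named rrm2 in Zn10, Zn15 and Ctrl, 1 library each, with exact 95% Poisson intervals. ENSDARG00000078069 is at 0 in Ctrl, at 8.21 CPM in Zn10 and at 46.5 CPM in Zn15, while the sum of both bars lies between 76.5 and 88.9 CPM.

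The 4 other members had more UMIs. The phosphatase gene cdc25b, which activates CDK1 at mitotic entry, had 282, 591 and 391 UMIs in Zn10, Zn15 and Ctrl, at 1.26 (1.07 to 1.47) and 1.57 (1.38 to 1.79) times Ctrl. The lamin B receptor gene lbr had 197, 476 and 358 UMIs, and lay at 0.959 (0.802 to 1.14) in Zn10 and 1.38 (1.2 to 1.59) times Ctrl in Zn15. For hmgb2a, a chromatin protein, there were 225, 487 and 500 UMIs, and Zn10 lay at 0.784 (0.667 to 0.920) and Zn15 at 1.01 (0.892 to 1.15) times Ctrl. Of hmgb2a UMIs in kept barcodes, 25.4% lay in mitosis-positive ones, beside 24.8% for lbr and 29.6% for cdc25b. The gene hmgb2a also reached 387 CPM in cerebellar granule neuron-like and 325 CPM in oligodendrocyte-like barcodes. All 3 genes were highest in cluster 1, at 1302 CPM for cdc25b, 1081 CPM for lbr and 1118 CPM for hmgb2a. The G1 cyclin gene ccnd1 differed from them in place: it was highest in radial glia-like barcodes (244 CPM, 58 UMIs), and its totals were 22, 59 and 71 UMIs, or 0.540 (0.319 to 0.882) times Ctrl for Zn10 and 0.863 (0.601 to 1.24) times for Zn15.

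Counted by a fold of 1.5 among members with at least 20 UMIs in the zinc library and Ctrl together, 2 of 23 were higher in Zn10 (cdk1 and dut), where 16.4% of 8067 genes of any kind passed that fold, and 6 were lower (ccnb1, aurkb, mcm6, rrm1, dnajc9 and ccnd1), where 10.7% did. In Zn15, 10 of 27 were higher (mki67, cdk1, plk1, tpx2, cenpf, mcm2, mcm3, mcm4, rrm2 ENSDARG00000078069 and cdc25b), where 11.4% of 8697 genes did, and 4 were lower (mcm6, rrm1, rrm2 ENSDARG00000020711 and dnajc9), where 14.2% did. The median log2 ratio of these members was 0.06 in Zn10, against 0.09 over all genes, and 0.41 in Zn15, against -0.06 over all genes. Of the 10 mitosis members with enough UMIs in Zn10, 7 had a ratio above 1, including top2a, whose log2 ratio of 0.06 is smaller than the shift of 0.12 between the scalings. Of the 11 in Zn15, 9 did. By the medians above, genes of any kind also lay mostly above 1 in Zn10, and mostly below 1 in Zn15. Among the members named past 1.5-fold, the intervals of cdk1, ccnb1, aurkb and rrm1 included 1 in Zn10. In Zn15 those of cdk1, mcm2, mcm3, mcm4 and rrm1 did. The genes of any kind were not matched to the members by their number of UMIs.

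**Figure D5:**
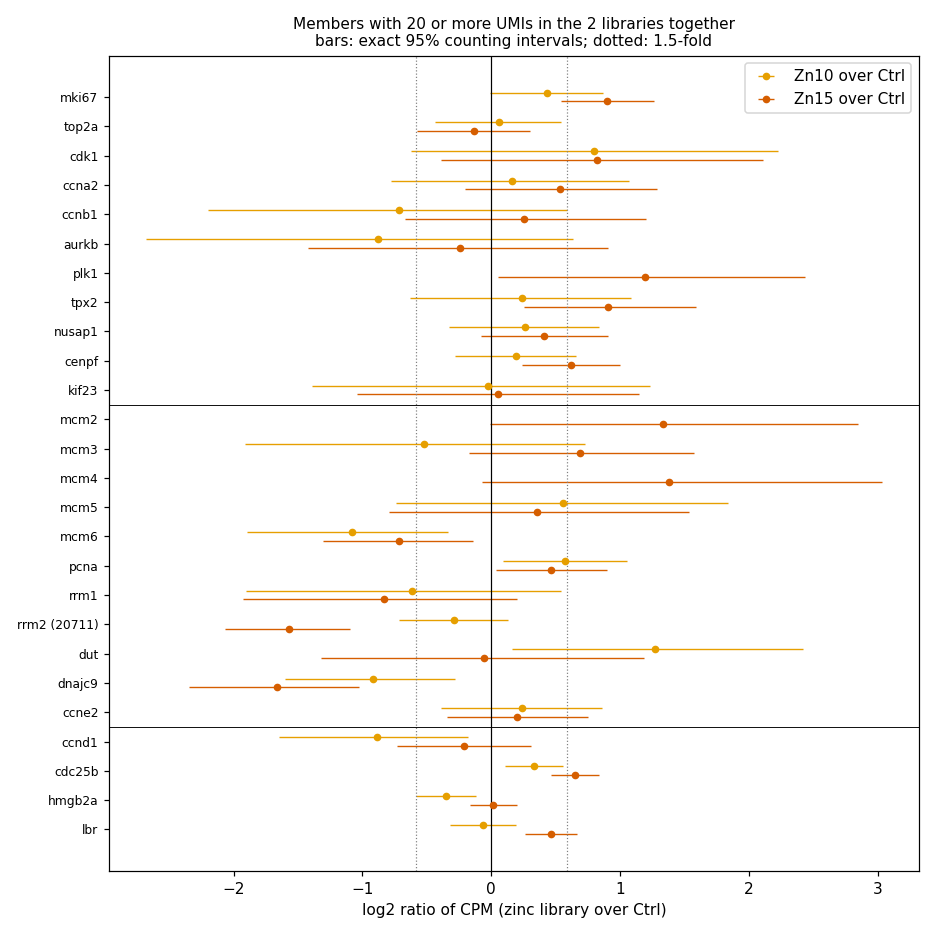
Log2 ratio of CPM, Zn10 over Ctrl and Zn15 over Ctrl, for members with 20 or more UMIs in the 2 libraries compared, with exact 95% counting intervals and dotted lines at 1.5-fold; rrm2 ENSDARG00000078069 is not drawn because Ctrl had 0 UMIs. In Zn15 the intervals of mki67, tpx2, plk1, cenpf, pcna, cdc25b and lbr lie above 0, and those of mcm6, rrm2 ENSDARG00000020711 and dnajc9 lie below.

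Other genes of the same pathways were counted as lists, to be read against the shares of all genes past the same fold (16.4% higher and 10.7% lower in Zn10, 11.4% higher and 14.2% lower in Zn15). Of 52 other mitosis genes with enough UMIs in Zn15, 14 were higher than in Ctrl and 5 lower, with a median log2 ratio of 0.24, and their UMIs summed to 1.04 (1.01 to 1.08) times Ctrl. In Zn10, 7 of 38 were higher and 5 lower, with a median of 0.04, and the sum was 0.906 (0.867 to 0.946) times Ctrl. The mitosis members of Zn10 summed to 1.17 times. These sums are not like for like: the other list took 6047 UMIs in Ctrl against 525 of the members. It includes tubulin and lamin genes, which are not restricted to mitosis. In Zn15 the largest ratios whose interval excluded 1 were those of dlgap5, a spindle protein (20 UMIs in Zn15, 4 in Ctrl), g2e3, a ubiquitin ligase (33 and 9 UMIs), aspm, a spindle pole protein (38 and 15 UMIs), and bub1bb, a checkpoint kinase (53 and 23 UMIs). In Zn10 they were depdc1a, lower with 6 UMIs in Zn10 and 31 in Ctrl, fbxo5, an inhibitor of the anaphase-promoting complex, higher with 17 and 10 UMIs, the kinesin gene kif20ba, higher with 20 and 16 UMIs, and lmnb1, a nuclear lamin, lower with 42 and 119 UMIs.

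Of other replication genes, 3 were higher and 5 lower of 19 in Zn10, and 3 higher and 4 lower of 21 in Zn15. Their sums were 1.02 (0.911 to 1.15) and 1.05 (0.946 to 1.16) times Ctrl. The chromatin assembly gene chaf1a was at 1.99 (1.06 to 3.76) times Ctrl in Zn10 and 2.28 (1.33 to 4.02) times in Zn15, and slbp, which binds histone messenger RNA, at 0.648 (0.418 to 0.983) and 0.556 (0.380 to 0.804) times. The single-strand DNA-binding gene rpa1 was at 1.93 (1.12 to 3.34) times Ctrl in Zn10. In Zn15, usp1, a deubiquitinase that acts on PCNA, was at 1.72 (1.03 to 2.91) times, and rfc4, a subunit of the clamp loader, at 0.425 (0.172 to 0.961) times.

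Inhibitors and exit genes were 0 higher and 2 lower of 20 in Zn10, and 1 higher and 2 lower of 21 in Zn15. Their sums were 0.923 (0.894 to 0.954) and 0.883 (0.859 to 0.908) times Ctrl. In Zn15 the pocket protein gene rbl1 was at 2.94 (1.11 to 9.12) and the kinase inhibitor gene cdkn1ba at 1.39 (1.15 to 1.69) times Ctrl. In contrast fzr1a, an activator of the anaphase-promoting complex after mitosis, was at 0.599 (0.369 to 0.957) and the pocket protein gene rbl2 at 0.730 (0.531 to 0.999) times. Of G1 cyclins and kinases, 1 was higher and 0 lower of 8 in Zn10, and 4 higher and 0 lower of 11 in Zn15, with sums of 1.1 (0.981 to 1.23) and 1.02 (0.925 to 1.13) times Ctrl. The transcription factor genes e2f3 and tfdp2, which act at the G1 to S step, were at 2.60 (1.29 to 5.57) and 2.08 (1.08 to 4.16) times Ctrl in Zn15, and the growth regulator myca was at 1.27 (1.02 to 1.58) times in Zn10.

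Mitosis-positive barcodes made up 66 of 2459 in Zn10 (2.68%, interval 2.08 to 3.40), 143 of 4119 in Zn15 (3.47%, 2.93 to 4.08) and 111 of 4629 in Ctrl (2.40%, 1.98 to 2.88). The share was 1.12 (0.813 to 1.53) times Ctrl in Zn10 and 1.45 (1.12 to 1.87) times in Zn15. Kept barcodes had medians of 301, 296 and 271 UMIs in Zn10, Zn15 and Ctrl. Thinned to 200 UMIs, which left out 469, 761 and 1090 shallower barcodes, the shares were 1.66%, 2.0% and 1.61%, and the ratios 1.03 (0.650 to 1.61) and 1.24 (0.857 to 1.80). A replication member was present in 43.9%, 37.1% and 40.5% of the mitosis-positive barcodes and in 5.94%, 5.71% and 6.48% of those with no mitosis member. Pairs of libraries had 4 to 8 barcode sequences in common, of which 0 were mitosis-positive.

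Inside cluster 1 the mitosis members summed to 2239 CPM in Zn10, 2232 CPM in Zn15 and 2101 CPM in Ctrl, with ratios of 1.07 (0.907 to 1.25) and 1.06 (0.928 to 1.22). The cluster held 17.2% of kept barcodes in Zn10, 20.9% in Zn15 and 15.1% in Ctrl. Its share was 1.14 (1.01 to 1.29) times Ctrl in Zn10 and 1.39 (1.25 to 1.53) times in Zn15. That share is a description and not an independent result, because genes that act in division or replication are among its leading genes. Over all kept barcodes its 10 leading genes summed to 1.24 (0.966 to 1.58) times Ctrl in Zn10 and 1.42 (1.15 to 1.76) times in Zn15. Inside the cluster those genes were at 1.12 (0.855 to 1.47) and 1.06 (0.846 to 1.34) times Ctrl.

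Replication members inside cluster 1 summed to 1244, 898 and 1199 CPM in Zn10, Zn15 and Ctrl, so Zn15 was at 0.749 (0.616 to 0.911) and Zn10 at 1.04 (0.835 to 1.29) times Ctrl. In the cluster there were 1.80 mitosis UMIs per replication UMI in Zn10, 2.48 (2.12 to 2.92) in Zn15 and 1.75 (1.47 to 2.09) in Ctrl. The replication UMIs in that ratio include those of rrm2 and dnajc9, counted below, so it is not a measure of S phase against mitosis. Single members inside cluster 1 went with the totals in part. In Zn15, mki67 was at 1.38 (1.04 to 1.86), top2a at 0.661 (0.464 to 0.939) and dnajc9 at 0.252 (0.114 to 0.516) times Ctrl. The rrm2 identifier ENSDARG00000020711 was at 0.257 (0.163 to 0.395) times, whereas ENSDARG00000078069 had 50 UMIs against 0. For pcna, mcm6, mcm3 and ccne2 the Zn15 ratios were 1.01, 0.790, 1.29 and 1.33, with intervals that included 1. The fall of the replication sum was thus not shared by all its members. Of the 206 replication UMIs of Ctrl in cluster 1, 83 were of rrm2 ENSDARG00000020711 and 31 of dnajc9. Of the 217 of Zn15, 30 were of ENSDARG00000020711, 50 of ENSDARG00000078069 and 11 of dnajc9. The sum without rrm2 and dnajc9 was not computed here, so the ratio of 0.749 is not one for replication members in general. In Zn10, pcna was at 1.92 (1.15 to 3.21), hmgb2a at 0.745 (0.589 to 0.939) and dnajc9 at 0.368 (0.146 to 0.818) times Ctrl. For cdc25b the ratios were 1.27 (1.02 to 1.57) in Zn10 and 1.26 (1.05 to 1.51) in Zn15.

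In radial glia-like barcodes mitosis members were lower in Zn10 and about level in Zn15. They summed to 304 CPM in Zn10 (15 UMIs), 576 CPM in Zn15 (63 UMIs) and 618 CPM in Ctrl (49 UMIs), at 0.492 (0.256 to 0.893) and 0.931 (0.631 to 1.38) times Ctrl. Replication members were at 548, 484 and 770 CPM (27, 53 and 61 UMIs), or 0.712 (0.435 to 1.14) and 0.629 (0.427 to 0.924) times Ctrl. Among those UMIs, rrm2 ENSDARG00000020711 had 7, 8 and 31, ENSDARG00000078069 1, 11 and 0, and dnajc9 1, 0 and 6 in Zn10, Zn15 and Ctrl. The Zn15 ratio of pcna was 1.05 (0.459 to 2.51). The sum without rrm2 and dnajc9 was not computed, so these ratios are not ones for replication members in general. The G1 cyclin ccnd1 was at 122, 201 and 379 CPM there, or 0.322 (0.109 to 0.785) times Ctrl for Zn10 and 0.531 (0.292 to 0.952) times for Zn15. Mitosis-positive radial glia-like barcodes numbered 4, 10 and 12 in Zn10, Zn15 and Ctrl, which made up 6.06%, 6.99% and 10.8% of the mitosis-positive barcodes of each library. As a share of radial glia-like barcodes they were at 0.661 (0.155 to 2.18) times Ctrl in Zn10 and 0.722 (0.280 to 1.82) times in Zn15. Both intervals included 1.

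In oligodendrocyte precursor-like barcodes mitosis members were at 304, 126 and 143 CPM in Zn10, Zn15 and Ctrl, so that Zn10 was at 2.13 (1.26 to 3.67) times Ctrl. Their mitosis-positive barcodes numbered 4, 5 and 5. In newborn neuron or neuronal progenitor-like barcodes mitosis members had 7, 6 and 22 UMIs, and Zn15 was at 0.281 (0.0932 to 0.715) times Ctrl. Only 0, 1 and 4 of these barcodes were mitosis-positive. By that share Zn15 was at 0.296 (0.00601 to 2.99) times Ctrl, so counted by barcodes a difference was not detectable. Microglia or macrophage-like barcodes had 4, 10 and 9 mitosis UMIs and lymphocyte or other leukocyte-like barcodes 1, 5 and 2, with intervals that included 1 in both zinc libraries.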

How the data were processed

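The values are whole-number UMI counts of genes by barcodes that the authors deposited without normalisation, from Cell Ranger 4.0.0 per the file headers. Per the submitters' processing notes, fastp and Seurat were used too, with build GRCz11. Cell calling, annotation release and intron counting: not given in the sources used here. No coordinates or sequences are given. Members and lists were chosen with earlier results of these data known; all members are given, and for each other list and comparison with Ctrl up to 4 genes with 20 or more UMIs, largest log2 ratio first, whose interval excludes 1.

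UMIs were summed per library or class and divided by the total (CPM). CPM carry Poisson, shares Clopper-Pearson and ratios conditional binomial intervals, all exact at 95%. A library with 0 UMIs was set to 3 counts, per library, for a bound. No p-value was computed. Relative to total-count scaling, the median of ratios lay at 0.12 (Zn10 over Ctrl) and -0.06 (Zn15 over Ctrl) on the log2 scale.

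Barcodes with 100 or more genes and at most 30% mitochondrial UMIs were kept, scaled to 300 UMIs, log-transformed and clustered with scanpy 1.11.5 (2000 variable genes, 30 components, 15 neighbours, Leiden resolution 1.0), with all cell cycle lists, malat1 and mitochondrial, ribosomal protein and haemoglobin genes left out. A cluster was named "-like" from markers 2-fold higher with 15 or more UMIs, at least 3 of them, weighed against the markers of other classes among its 10 leading genes; this rule was set after the clusters had been seen, and another rule could give other names. Doublets were not called or removed, and free RNA was not corrected. The ratios and intervals were tested on simulated data drawn as independent Poisson counts per gene. Clumping of UMIs in single barcodes was not part of that test.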

Additional observations from a re-analysis of the deposited data

How the results depend on the processing

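Of 59 recomputed values, 43 stayed near the reported value and 16 did not. The Zn10 mitosis ratio crossed 1, to 0.979, without the 10 barcodes with most mitosis UMIs. With clusters reweighted to the Ctrl mix it was 0.995 and the Zn15 ratio 1.05. Reweighting takes out differences in cluster shares, among them that of cluster 1, which division genes help to lead, and keeps differences inside clusters. Whether cluster shares account for the library ratios was not tested. In barcodes with 200 or more genes, the Zn15 mitosis ratio was 1.69, and replication ratios crossed 1, to 1.08 in Zn10 and 1.21 (1.01 to 1.44) in Zn15. They also crossed 1 without dnajc9 and mcm6, at 1.16 (Zn10) and 1.13 (Zn15). With 100 or more UMIs per gene, members past 1.5-fold numbered 0 higher and 1 lower of 10 in Zn10. In Zn15 they numbered 3 higher and 3 lower of 13. With no minimum, 6 of 31 were higher in Zn10. In barcodes with 200 or more genes, 3 of 17 were lower in Zn10 and 2 of 20 in Zn15. Shares over all genes are given only for the minimum of 20 UMIs, so these recounts have no background to be read against. The cluster with most mitosis-positive barcodes held 84.1% of them when cell cycle genes were used in clustering, with 1.98% of radial glia-like barcodes positive, and 55.9% with 1000 variable genes. At resolution 0.5 no radial glia-like class and no newborn neuron or neuronal progenitor-like class was named. Omitting mki67, both rrm2 identifiers, or dnajc9 and mcm6, and reweighting clusters, were chosen after seeing the data. Other causes were not tested. No paired analysis was possible because each treatment has 1 library, and for the same reason no replicate could be left out. Depth limits members with few UMIs and the small classes.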

Other observations

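Outside the cell cycle lists, the genes with the largest ratio between the 320 mitosis-positive barcodes and barcodes with no mitosis member, among those with 15 or more UMIs there, included further genes of chromosome handling. The gene esco2, whose product acetylates cohesin, had 15 UMIs in mitosis-positive barcodes and 6 in the others, the spindle pole gene numa1 had 16 and 9, and the centromere gene cenpl had 16 and 15. The transcription factor gene foxn4, known from retinal and spinal progenitors, had 24 and 16 UMIs, or 174 and 4.39 CPM. These genes were picked by their ratio, so they are a description.

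Among genes of cell cycle exit, gadd45gb.1 had 47 UMIs in Zn10 and 141 in Ctrl, at 0.581 (0.408 to 0.813) times the Ctrl level. The gene ccng1 had 613 UMIs in Zn10 and 1547 in Ctrl, at 0.690 (0.628 to 0.759) times the Ctrl level, and btg1 1149 and 2568 UMIs, at 0.780 (0.727 to 0.836) times. The related btg2 was at 1.23 (1.05 to 1.42) times Ctrl in Zn10.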
